A study of Mus musculus with 9 samples.

Results

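The central pair apparatus is the core structure of a motile cilium, and this report describes 10 of its genes: Hydin, Spef1, Spef2, Spag6l, Spag16, Spag17, Cfap221, Cfap54, Cfap46 and Cfap74. They were chosen by name, as genes whose products build or decorate the central pair, out of 53379 gene identifiers counted. Earlier results of these data were known when they were chosen, so counts of members called are descriptions. All 10 were matched and all 10 passed the filter on low counts, which left 19572 genes for testing.

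The cells were GFP-positive cells sorted from mouse forebrain (strain C57Bl6DBa2) at E16.5 (days of embryonic age), 2 days after in utero electroporation with plasmids at E14.5, and the labels call them neural progenitor cells. Libraries fell into 3 groups of 3: a plasmid coding for GemC1 (pCAGGS-GemC1), a plasmid coding for Mcidas (written pCAAGS-Mcidas), and the H2B-GFP reporter. GemC1 (gene symbol Gmnc) and Mcidas are related nuclear regulators that switch on multiciliated cell differentiation, and the study asked how GemC1 brings about that fate. Each factor was expressed from a plasmid in its own group, so its level there is not that of the embryo's own gene alone. Nothing in the labels says that the replicates came from separate litters, so p-values measure only the spread between these samples.

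Motile cilia carry a ring of doublet microtubules around a central pair of singlet microtubules. The central pair bears protein projections that contact the radial spokes and so take part in setting the activity of the dynein arms and the shape of the beat. In the brain, ependymal cells that line the ventricles carry tufts of such cilia, and mice with mutations in several central pair genes, Hydin among them, develop hydrocephalus.

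Promoters of these genes are shown first, since 6 of the 9 members with a RefSeq promoter held the letters GTTGCC, a core of the site read by RFX factors, on either strand (GGCAAC on the other). Sequences are from RefSeq on GRCm38.p6, read 5′ to 3′ along the gene's own strand, with each such match in capitals. Spag16 and Cfap74 had the most matches, 2 each, so the 250 bases before the start are given whole for both, and for Cfap74 they belong to the first of its 2 listed starts. The second Cfap74 match and the single matches of Cfap46, Hydin, Spef2 and Spag6l are given as short windows.
Spag16 (before the start, chr1:69826720-69826969, plus strand): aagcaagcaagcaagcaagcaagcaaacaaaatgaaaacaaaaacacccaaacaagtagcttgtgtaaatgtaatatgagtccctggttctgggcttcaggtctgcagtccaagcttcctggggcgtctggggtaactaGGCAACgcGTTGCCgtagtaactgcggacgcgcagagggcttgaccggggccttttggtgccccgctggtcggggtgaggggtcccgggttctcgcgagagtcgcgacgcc
Cfap74 (before the start, chr4:155408940-155409189, plus strand): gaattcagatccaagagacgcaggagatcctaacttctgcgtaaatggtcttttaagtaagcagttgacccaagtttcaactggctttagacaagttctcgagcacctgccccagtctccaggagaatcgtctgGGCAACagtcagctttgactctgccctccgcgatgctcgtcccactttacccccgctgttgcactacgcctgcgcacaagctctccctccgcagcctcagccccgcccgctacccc
Cfap74 (after the start, chr4:155409191-155409220, plus strand): aagcagccttccGTTGCCatggagctgcgc
Cfap46 (window, chr7:139683807-139683836, minus strand): gccccgtctctaGGCAACcgctactggtcc
Hydin (window, chr8:110266952-110266981, plus strand): tgcggttgctgtGGCAACagatggtaacaa
Spef2 (window, chr15:9748843-9748872, minus strand): ccttagcaactgGTTGCCctgggcgacggg
Spag6l (window, chr16:16829314-16829341, minus strand): cggttgctgtcgGTTGCCctggagacgc

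In Spag16 the matches lay on opposite strands, beginning 111 and 103 bases before the start. The matches in Hydin and Cfap46 began 13 and 9 bases before the start, and those in Spef2 and Spag6l began 8 and 34 bases after it. No match was found for Spef1, Spag17 or Cfap221. Over all 32851 promoters of the same length, 4111 (12.5%) held these letters. The forkhead core TGTTTAC, searched on both strands, was found in none of the 9 members' promoters and in 1199 of all promoters (3.65%). A match describes letters in a window and was not tested as a binding site. Cfap54 had no entry in the table.

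Total counts per library ran from 22914704 (Mcidas replicate 3) to 41163917 (GFP replicate 2), and 3 counts were worth 0.0737 to 0.130 CPM, depending on the library. CPM are counts relative to the TMM-scaled total of their library, and such floors cover counting error only. The delivered genes followed the labels: Gmnc had 291, 223 and 317 CPM in GemC1 libraries, against 0.26, 0 and 0.26 CPM in Mcidas libraries and 0 in all 3 GFP libraries. Mcidas had 60.3 to 76.8 CPM in GemC1 libraries and 388, 508 and 597 CPM in Mcidas libraries 1 to 3, against 0.65 to 0.69 CPM in GFP libraries. It was thus called higher in GemC1 than in GFP cells too (6.71 ± 0.21 log2, edgeR adjusted p = 4.79e-09), where the labels name only the GemC1 plasmid. GemC1 against Mcidas therefore does not compare cells that each held a single factor. All 8 neural progenitor markers were detected in every library, with a summed level of 1235 to 1407 CPM in GemC1, 877.5 to 1128 CPM in Mcidas and 846.7 to 1095 CPM in GFP libraries. The 6 neuron markers were also present, at 3292 to 3597, 3305 to 3951 and 3924 to 4525 summed CPM in GemC1, Mcidas and GFP libraries.

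Most members rose with either factor: 8 of 10 were called higher in GemC1 than in GFP cells and 8 of 10 in Mcidas than in GFP cells, and none was called lower. A gene was called at an adjusted p under 0.05 in edgeR's quasi-likelihood test over all 19572 genes, which called 3.86% of them higher in GemC1 and 4.03% higher in Mcidas cells. The members' median log2 fold change was 3.28 for GemC1 and 3.74 for Mcidas, against 0.00 and -0.03 over all genes tested. Hydin and Spag17 did not pass in either comparison. Both comparisons use the same 3 GFP libraries. In RNA from many cells, more cells expressing a gene and more RNA per expressing cell cannot be told apart.

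**Figure D1:**
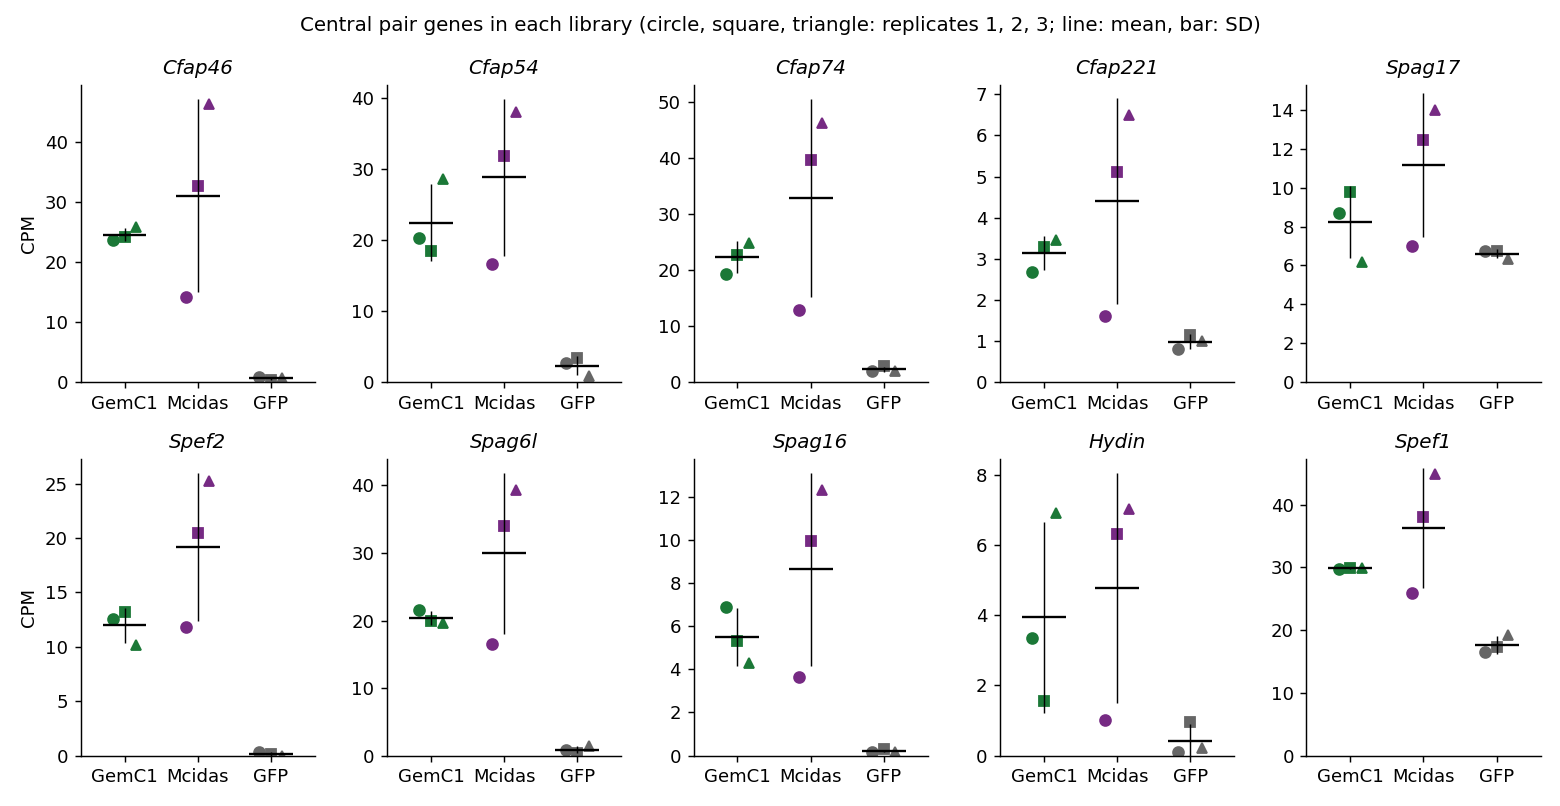
Level of each central pair gene in CPM (vertical axis, linear, its own scale for each gene) in GemC1, Mcidas and GFP libraries, with replicates 1, 2 and 3 as circle, square and triangle, the mean as a horizontal line and the SD as a vertical bar that stops at 0. Cfap46, Spef2, Spag6l and Spag16 lie near 0 in GFP libraries, Spag17 and Spef1 do not, and Mcidas replicate 1 is the lowest Mcidas library in all 10 panels.

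Cfap46, Cfap54, Cfap74 and Cfap221 code for proteins that share 1 projection of the central pair in the alga Chlamydomonas. Cfap46 (ENSMUSG00000049571, chr7:139600951-139683817, GRCm38) had 23.7, 24.1 and 25.8 CPM in GemC1 libraries, 14.1, 32.7 and 46.2 CPM in Mcidas libraries, and 0.764, 0.295 and 0.690 CPM in GFP libraries. Each of the 6 libraries with a factor was far above all 3 GFP libraries, with the widest scatter among the Mcidas libraries. The log2 fold change was 5.42 ± 0.45 (SE, n = 3 a group) in GemC1 cells, with an edgeR adjusted p of 2.31e-05, and 5.75 ± 0.45 in Mcidas cells, with an adjusted p of 9.34e-06.

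Cfap54 (ENSMUSG00000020014, chr10:92775619-93081618), whose loss in mice impairs ciliary beating, had 20.3, 18.4 and 28.7 CPM in GemC1 libraries, 16.6, 31.9 and 38.1 CPM in Mcidas libraries, and 2.71, 3.34 and 0.870 CPM in GFP libraries. GFP replicate 3 was the lowest of all and no library with a factor reached down to the GFP range. The gene rose by a log2 fold change of 3.27 ± 0.42 in GemC1 cells (edgeR adjusted p = 0.000741) and of 3.63 ± 0.43 in Mcidas cells (adjusted p = 0.000275).

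Cfap74 (ENSMUSG00000078490, chr4:155409190-155466823) had 19.2, 22.7 and 24.9 CPM in GemC1 libraries, 12.9, 39.7 and 46.3 CPM in Mcidas libraries, and 1.94, 2.80 and 2.04 CPM in GFP libraries. The groups with a factor did not overlap GFP, and the 3 GFP libraries lay close together. Its log2 fold change was 3.29 ± 0.40 with GemC1 (edgeR adjusted p = 0.000402) and 3.85 ± 0.41 with Mcidas (adjusted p = 9.73e-05). It shares 453 bases of exon with 5830444B04Rik on the other strand, which had 92, 72 and 123 counts in GemC1, 73, 160 and 140 counts in Mcidas and 24, 23 and 12 counts in GFP libraries. Since neither library kit marks strand, reads from those bases cannot be told apart.

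Cfap221 (ENSMUSG00000036962, chr1:119923341-119997234), whose loss in mice causes a primary ciliary dyskinesia, stood lower, at 2.68, 3.29 and 3.45 CPM in GemC1 libraries, 1.61, 5.11 and 6.50 CPM in Mcidas libraries, and 0.794, 1.15 and 0.990 CPM in GFP libraries. Mcidas replicate 1 came closest to the GFP range without entering it. The log2 fold change was 1.67 ± 0.43 in GemC1 cells (edgeR adjusted p = 0.0441) and 2.15 ± 0.43 in Mcidas cells (adjusted p = 0.0104). The call in GemC1 cells was lost when any of 7 single libraries was left out, namely each GemC1 library, each GFP library or Mcidas replicate 2, with an adjusted p of up to 0.154. The call in Mcidas cells was lost without Mcidas replicate 2, Mcidas replicate 3 or GFP replicate 1, with an adjusted p of up to 0.0628.

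Spag17 and Spef2 code for large proteins of other projections on the same central microtubule, placed there by their Chlamydomonas relatives PF6 and CPC1. Spag17 (ENSMUSG00000027867, chr3:99885406-100143322) had 8.71, 9.79 and 6.18 CPM in GemC1 libraries, 6.998, 12.5 and 14.0 CPM in Mcidas libraries, and 6.73, 6.73 and 6.36 CPM in GFP libraries. GemC1 replicate 3 fell below every GFP library, so those groups overlapped, while Mcidas replicate 1 lay just above the GFP range. The log2 fold change was 0.32 ± 0.25 in GemC1 cells (95% interval -0.23 to 0.87, edgeR adjusted p = 0.543) and 0.75 ± 0.25 in Mcidas cells (interval 0.20 to 1.303, adjusted p = 0.165). Without Mcidas replicate 1 the value in Mcidas cells was 1.01, with an adjusted p of 0.0114, and with no filter on low counts the adjusted p was 0.0493. The other 14 of 16 alternative runs left it uncalled in Mcidas cells. Over all 16 the value fell as low as 0.56 and the edgeR adjusted p reached 0.527.

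Spag17 shares 820 bases of exon with Wdr3 on the opposite strand, a gene with 2163 to 4034 counts in every library, and 516 bases with Spag17os. Of the 75-base windows of its transcripts, 12.6% also occur in these genes. Whether reads from the shared bases added to the Spag17 level in GFP cells, or were left out of it, was not tested.

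Spef2 (ENSMUSG00000072663, chr15:9578193-9748868), needed in mice for sperm tails and for normal ciliary beating, was almost absent from GFP libraries. It had 12.6, 13.2 and 10.1 CPM in GemC1 libraries, 11.8, 20.5 and 25.3 CPM in Mcidas libraries, and 0.382, 0.147 and 0 CPM in GFP libraries, from 13, 6 and 0 counts. In GFP replicate 3 the count of 0 allows up to 0.0900 CPM. Among the 10 members it had the highest fold changes, at 6.06 ± 0.53 log2 in GemC1 cells (edgeR adjusted p = 2.5e-05) and 6.73 ± 0.53 log2 in Mcidas cells (adjusted p = 8.45e-06). Without GFP replicate 1 these were 7.15 and 7.84, so their size depends on a few counts in GFP cells.

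Spag6l and Spag16 code for proteins at the microtubules themselves. Spag6l is the mouse relative of the Chlamydomonas protein PF16, needed for a stable central pair, and Spag16 is the relative of PF20, which sits on the bridge between the central microtubules. Spag6l (ENSMUSG00000022783, chr16:16753016-16829456) had 21.5, 19.98 and 19.6 CPM in GemC1 libraries, 17 (to the nearest whole number, from 573 counts), 33.9 and 39.4 CPM in Mcidas libraries, and 0.911, 0.368 and 1.41 CPM in GFP libraries. The GemC1 libraries were nearly alike, the Mcidas libraries were spread out around them, and none approached GFP. It rose by a log2 fold change of 4.53 ± 0.41 with GemC1 (edgeR adjusted p = 4.12e-05) and of 5.08 ± 0.41 with Mcidas (adjusted p = 1.25e-05).

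The close copy Spag6 did not pass the filter on low counts. Spag6 had 0.07, 0 and 0 CPM in GemC1 libraries, 0.23, 0.09 and 0.30 CPM in Mcidas libraries and 0.21, 0.39 and 0.09 CPM in GFP libraries. No 75-base window of Spag6l transcripts occurs in another annotated gene, Spag6 included, so exact reads of that length match only 1 of the 2 copies.

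Spag16 (ENSMUSG00000053153, chr1:69826970-70725132) had 6.91, 5.32 and 4.28 CPM in GemC1 libraries, 3.63, 9.96 and 12.3 CPM in Mcidas libraries, and 0.176, 0.295 and 0.180 CPM in GFP libraries. No library of either factor was near the GFP values, which came from 6, 12 and 6 counts. The log2 fold change was 4.62 ± 0.49 in GemC1 cells (edgeR adjusted p = 9.61e-05) and 5.26 ± 0.49 in Mcidas cells (adjusted p = 2.48e-05).

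Hydin (ENSMUSG00000059854, chr8:110266977-110610253) codes for a very large protein of a projection on the other central microtubule, as mapped in Chlamydomonas. It had 3.35, 1.56 and 6.91 CPM in GemC1 libraries, 1.01, 6.30 and 7.02 CPM in Mcidas libraries, and 0.118, 0.958 and 0.210 CPM in GFP libraries. GFP replicate 2 was well above the other GFP libraries and came within a narrow margin of Mcidas replicate 1, although the groups did not overlap. Within a group the highest library was 4.43 times the lowest in GemC1, 6.96 times in Mcidas and 8.14 times in GFP cells, the widest ratios of any member with no library at 0.

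The Hydin log2 fold change was 3.15 ± 0.86 in GemC1 cells (95% interval 1.26 to 5.04, edgeR adjusted p = 0.0621) and 3.41 ± 0.87 in Mcidas cells (interval 1.52 to 5.31, adjusted p = 0.0504). Both values missed the threshold. Without GFP replicate 2 they were 4.57 and 4.84 and both passed, with adjusted p of 0.0323 and 0.0189. Without Mcidas replicate 1 both also passed (adjusted p = 0.0155 and 0.00437), and with DESeq2 the adjusted p was 0.0264 and 0.0155. Without GemC1 replicate 3 the value in GemC1 cells was 2.46 (adjusted p = 0.171), and with no filter on low counts the adjusted p was 0.258 in GemC1 and 0.335 in Mcidas cells.

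Spef1 (ENSMUSG00000027329, chr2:131170261-131187282), also called CLAMP, codes for a protein that binds and bundles microtubules and takes part in forming the central pair. It had 29.7, 29.9 and 29.99 CPM in GemC1 libraries, 26.0, 38.1 and 44.8 CPM in Mcidas libraries, and 16.52, 17.3 and 19.3 CPM in GFP libraries. The 3 GemC1 libraries were almost equal, and every library with a factor exceeded every GFP library. Its log2 fold change was 0.76 ± 0.17 with GemC1 (edgeR adjusted p = 0.0211) and 1.03 ± 0.17 with Mcidas (adjusted p = 0.00224).

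The Spef1 call in GemC1 cells was lost whenever 1 GemC1 or 1 GFP library was left out, with an adjusted p of up to 0.0851. Spef1 exons overlap those of Gm14232 by 256 bases, Cdc25b by 92 and Cenpb by 20, and 7.48% of its 75-base windows also occur in Cdc25b or Gm14232. Cdc25b had 1535 to 2357 counts in every library. Whether reads from the shared bases added to the Spef1 level, or were left out of it, was not tested. The annotated gene begins 12472 bases upstream of the RefSeq start used for its promoter.

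**Figure D2:**
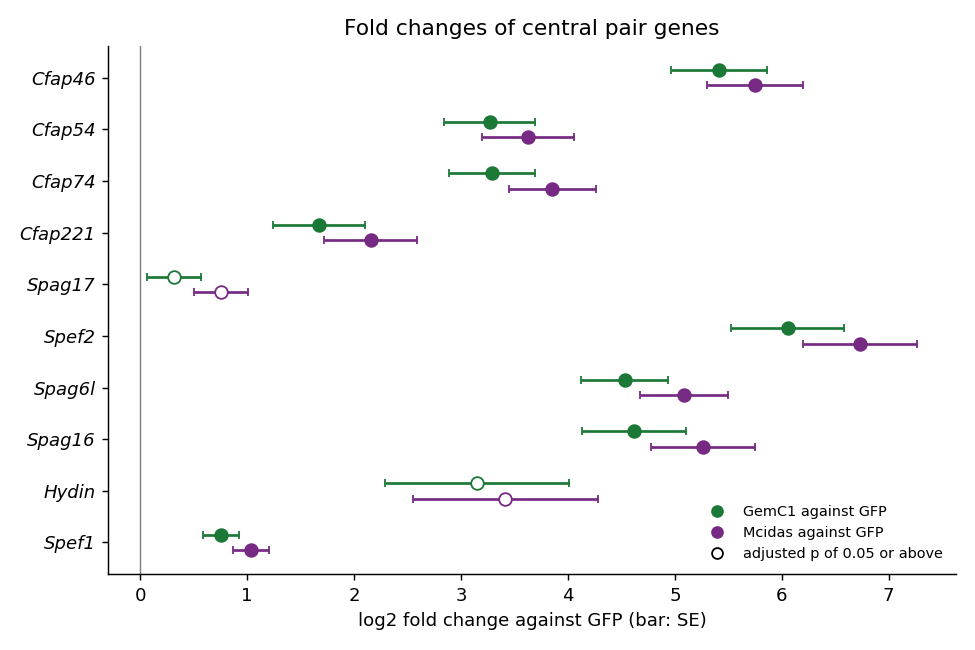
Log2 fold change against GFP (horizontal axis) of each central pair gene in GemC1 cells and in Mcidas cells, with the standard error from edgeR as bars and open points where the adjusted p was 0.05 or above. Values run up to 6.06 and 6.73 for Spef2, and those of Spag17 (0.32 and 0.75) and Spef1 (0.76 and 1.03) lie nearest to 0.

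The members thus fell along a range of sizes. Spef2, Cfap46, Spag16 and Spag6l had log2 fold changes of 4.53 to 6.06 in GemC1 cells and of 5.08 to 6.73 in Mcidas cells. Cfap74, Cfap54 and Hydin followed, then Cfap221, Spef1 and Spag17. The members with no GTTGCC match in the promoters searched, Cfap221, Spef1 and Spag17, were the ones with the 3 smallest values in both comparisons, a description over 9 promoters with no test. Only these exact letters were searched, so no match does not mean that no site of RFX factors is present. The same letters did not sort the other central apparatus genes in that way: in GemC1 cells Cfap70, with no match, had a log2 fold change of 4.76 and Kif27, with none, 3.27, while Stk36, with 1 match, had 0.67 and Mycbp, with 2, had 0.11. Kif9 and Adgb, with a match, had 3.15 and 3.79. The annotated Kif27 gene begins 4175 bases upstream of the RefSeq start searched, and Spef1 begins 12472 bases upstream of its own. Other starts of these genes were not searched. Taken by library, 9 members had no overlap between GemC1 and GFP (Spag17 overlapped) and all 10 had none between Mcidas and GFP. Of all genes tested, 13.2% were higher without overlap in GemC1 than in GFP and 10.7% in Mcidas than in GFP.

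Levels between genes can be compared only per length, here as CPM per kilobase of annotated exon. That length merges the exons of all annotated transcripts of a gene, and coverage along the amplified transcripts was not examined. Spef1 had the least exon of the members (2.75 kb) and Hydin the most (18.04 kb). Whether length shaped the order below was not tested. Spef1 was the most abundant member in every group, at 10.9 ± 0.057 CPM per kb in GemC1 cells, 13.2 ± 3.48 in Mcidas cells and 6.44 ± 0.513 in GFP cells (SD, n = 3 each). Hydin was the least abundant in GemC1 cells, at 0.218 ± 0.151 CPM per kb, and in Mcidas cells, at 0.265 ± 0.182. In GFP cells Spef2 was the lowest, at 0.0178 ± 0.0194 CPM per kb, and Hydin stood next to it at 0.0238 ± 0.0255.

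The order from Spef1 to Hydin was the same in GemC1 and Mcidas cells. After Spef1 came Spag6l, at 4.47 ± 0.228 CPM per kb in GemC1 and 6.56 ± 2.62 in Mcidas cells, and Cfap46, at 2.66 ± 0.123 and 3.36 ± 1.75. Cfap74 (2.24 ± 0.288 and 3.31 ± 1.78) and Cfap54 (1.53 ± 0.373 and 1.97 ± 0.757 CPM per kb) followed in GemC1 and Mcidas cells. In GemC1 cells Spef2, Cfap221, Spag17 and Spag16 then lay between 1.21 and 0.813 CPM per kb, and in Mcidas cells between 1.93 and 1.28. Libraries of neighbours in this order overlapped, except that in GemC1 cells Spef1, Spag6l and Cfap46 each stood clear of the next gene and Spag16 stood clear of Hydin. In Mcidas cells only Spef1 and Spag16 stood clear of the gene after them. Such overlaps set ranges over libraries against each other, and genes were not compared within each library. In Mcidas replicate 1, the lowest for both, Spag6l had 3.62 and Cfap46 1.53 CPM per kb. In Mcidas replicate 3, the highest for both, they had 8.63 and 5.01 CPM per kb. An overlap here therefore does not show equal levels.

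In GFP cells the order was another. Spag17 was second, at 0.778 ± 0.0254 CPM per kb, and stood clear of Cfap221 after it, at 0.336 ± 0.0619. Cfap74 (0.227 ± 0.0473), Spag6l (0.197 ± 0.114) and Cfap54 (0.157 ± 0.0876 CPM per kb) came next, and Cfap46 and Spag16 were at 0.0632 ± 0.0274 and 0.0321 ± 0.00995 CPM per kb. From Cfap221 down, the libraries of each pair of neighbours overlapped.

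**Figure D3:**
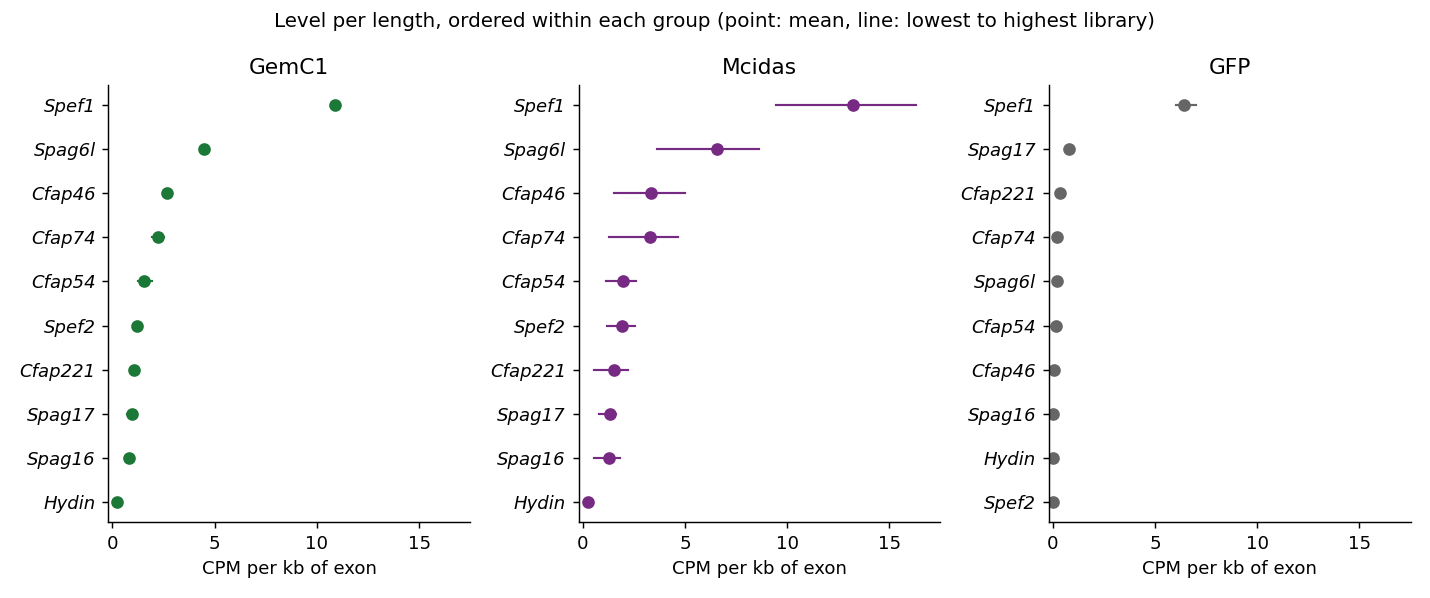
Level of each central pair gene per kilobase of exon (CPM per kb, linear axis shared by the panels), ordered within GemC1, Mcidas and GFP cells, with the mean as a point and a line from the lowest to the highest of 3 libraries. Spef1 leads in each panel (10.9, 13.2 and 6.44 CPM per kb), and Spag6l, second with either factor, stands lower, behind Spag17, Cfap221 and Cfap74, in GFP cells.

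Between the factors no member differed by the test. None of the 10 was called in either direction between GemC1 and Mcidas cells by edgeR, by DESeq2 or in any other alternative run, where edgeR called 0.0511% of all genes. At an unadjusted p under 0.05 the count was 0 of the 10 members and 2551 of the 19572 genes tested. The log2 fold changes of GemC1 over Mcidas ran from -0.68 ± 0.36 for Spef2 (95% interval -1.46 to 0.11) to -0.27 ± 0.75 for Hydin (interval -1.91 to 1.37), with adjusted p of 0.456 and 0.915. All 10 were negative, with a median of -0.46, against 50.6% of all genes tested. The sign was not particular to the members. All 11 other central apparatus genes tested were negative too (median -0.37), as were 13 of 15 radial spoke genes (median -0.44). Cfap46 (-0.33 ± 0.33) and Hydin turned positive, at 0.07 and 0.11, without Mcidas replicate 3. Intervals this wide do not show that the factors act alike. No member's GemC1 and Mcidas libraries were free of overlap, and 16.7% of all genes were.

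The Mcidas libraries differed among themselves in the same way for every member. Replicate 1 was the lowest and replicate 3 the highest of the group for all 10 genes. Replicate 1 was below every GemC1 library for 8 members, replicate 2 was above every GemC1 library for 9 and replicate 3 for all 10. Such counts were not made over all genes tested, so they do not set the members apart from other genes. Among the other central apparatus genes tested, Cfap65, Cfap69, Cfap70, Kif9 and Camsap3 also rose from Mcidas replicate 1 through 2 to 3. Stk36, Kif27, Mycbp, Mycbpap, Adgb and Wdr47 did not. Relative to the mean of the GemC1 libraries, the median member stood at -0.49, 0.72 and 1.003 log2 in Mcidas libraries 1, 2 and 3, and between -0.01 and 0.04 log2 in the GemC1 libraries. Summed over members, the level was 149, 148 and 160 CPM in GemC1 libraries, 111, 231 and 280 CPM in Mcidas libraries, and 31.0, 33.4 and 32.0 CPM in GFP libraries.

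**Figure D4:**
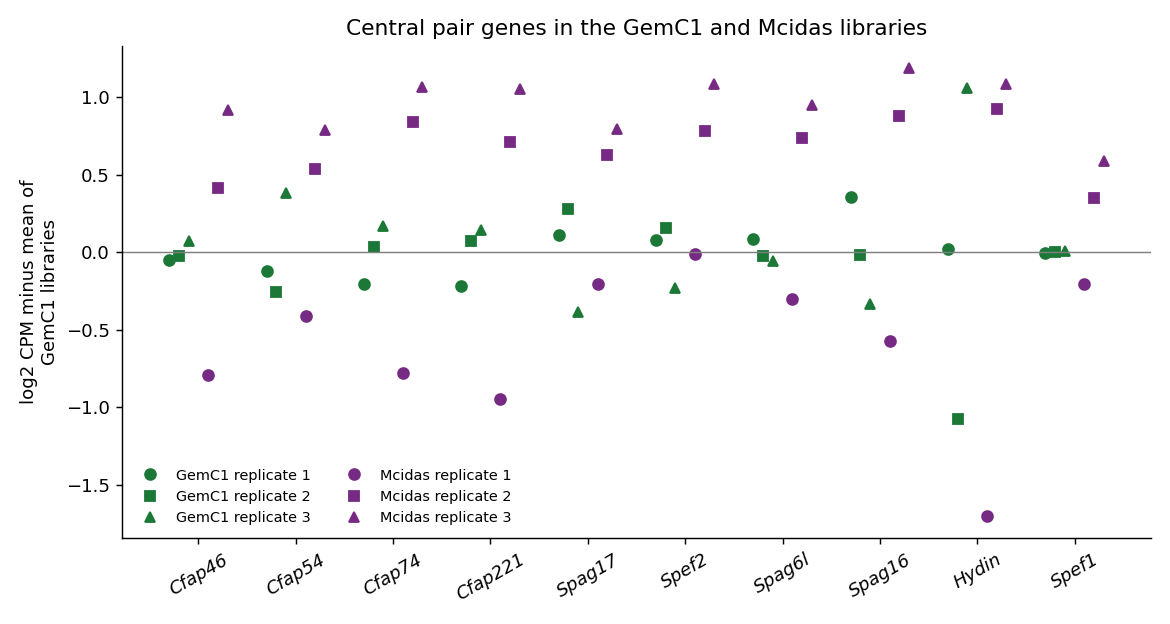
Log2 CPM of each central pair gene minus its mean over the GemC1 libraries (vertical axis), for GemC1 replicates 1 to 3 and Mcidas replicates 1 to 3. Mcidas replicate 1 lies below the other Mcidas libraries for all 10 genes, and replicate 3 lies above every GemC1 library for all 10.

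The regulators above these genes were measured in the same libraries. Foxj1, a forkhead factor that drives motile cilia genes, had 121, 99.6 and 140 CPM in GemC1 libraries, 95.8, 170 and 183 CPM in Mcidas libraries, and 1.06, 1.52 and 0.510 CPM in GFP libraries, and among the Mcidas libraries it stood in the same order as the members. Mcidas itself, Rfx2, Myb and Ccno stood in that order too, and Rfx3 and Trp73 did not. Sox2, Vim, Hes5 and the neuron marker Tubb3 also had it, while Pax6, Nes, Hes1, Slc1a3 and Fabp7 did not. The other neuron markers ran the opposite way, and the neuron sum was 3951, 3571 and 3305 CPM in Mcidas libraries 1 to 3. Total counts of these libraries fell as well, from 34860313 to 32157318 and 22914704. What set the order was not tested. Rfx2, an RFX factor of ciliated cells, had 29.4, 21.6 and 25.1 CPM in GemC1, 21.8, 30.8 and 48.8 CPM in Mcidas, and 4.29, 7.24 and 4.20 CPM in GFP libraries. Rfx2 rose by 2.27 ± 0.29 log2 with GemC1 (edgeR adjusted p = 0.000496) and 2.68 ± 0.29 log2 with Mcidas (adjusted p = 0.000107). Rfx3, another RFX factor of cilia, was not called, at -0.20 ± 0.10 log2 in GemC1 cells and 0.05 ± 0.10 log2 in Mcidas cells (edgeR adjusted p = 0.31 and 0.91). Trp73, Myb and Ccno, which act early in multiciliated cells, were called higher with both factors, by 7.74, 2.48 and 4.79 log2 in GemC1 and by 7.60, 2.86 and 5.12 log2 in Mcidas cells. Whether any of these acted on the members was not tested.

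Most other genes of the central apparatus were called higher too. Of 13 listed, 12 were matched and 11 passed the filter, of which 7 were called higher in GemC1 and 8 in Mcidas cells and none lower, with a median log2 fold change of 2.77 and 3.28. Cfap65, a protein needed for sperm tails, averaged 24.3 ± 10.7 CPM in GemC1 and 38.7 ± 19.4 CPM in Mcidas libraries, while 2 of the 3 GFP libraries were at 0 and the third had 10 counts. Cfap70 was called at 4.76 ± 0.61 and 5.42 ± 0.61 log2, and Cfap69 at 2.40 ± 0.25 and 2.98 ± 0.26 log2, in GemC1 and Mcidas cells. The kinesins Kif9 (3.15 and 3.51 log2) and Kif27 (3.27 and 4.001 log2) and the globin-like Adgb (3.79 and 4.16 log2) were called in GemC1 and Mcidas cells. Stk36, a kinase that takes part in central pair formation, was called at 0.67 ± 0.10 log2 in GemC1 and 0.83 ± 0.10 log2 in Mcidas cells. Mycbpap was called in Mcidas cells (3.28 ± 0.78 log2, edgeR adjusted p = 0.0334) and missed the threshold in GemC1 cells (2.77 ± 0.78 log2, adjusted p = 0.0644), a difference between the factors of -0.51 ± 0.69 log2 (adjusted p = 0.798). Mycbp, Wdr47 and Camsap3 were not called in either comparison, at 0.11, -0.06 and -0.26 log2 in GemC1 cells and 0.30, 0.02 and 0.09 log2 in Mcidas cells. Of 15 radial spoke genes tested, 12 were called higher in GemC1 and 13 in Mcidas cells, with medians of 3.55 and 4.78 log2.

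Genes whose pattern was most like the members' mean profile were ranked by the root mean square difference of centred log2 CPM over the 9 libraries, among 14189 genes outside the list whose average log2 CPM was 1 or more. The closest were Dnali1 and Ccdc151 (0.192 each), Nme5 (0.221), Mlf1 (0.222), Spata17 (0.228), Tekt1 (0.239), Hspa2 (0.252) and Spag8 (0.268), where the median of all candidates was 1.79. Dnali1 had 18.4 CPM in GemC1, 23.2 CPM in Mcidas and 1.84 CPM in GFP cells on average. Among the members Cfap74 was closest to their mean profile, at 0.192, and Spef2 was farthest, at 1.99, with Spag17 at 1.504 and Spef1 at 1.33.

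Markers of other cells moved in part with the groups. The 10 microglia markers summed to 82.8, 50.1 and 65.0 CPM in GemC1, 33.3, 52.6 and 48.7 CPM in Mcidas and 32.6, 29.7 and 22.1 CPM in GFP libraries, and 6 were called higher in GemC1 and 2 in Mcidas cells. The part of microglia in the members' values was not tested. Of 9 markers of choroid plexus epithelium, which also carries motile cilia, only Clic6 passed the filter, and it was called higher with both factors, at 8.92, 2.44 and 5.16 CPM in GemC1, 2.56, 6.82 and 6.63 CPM in Mcidas and 0, 0 and 0.330 CPM in GFP libraries. Ttr, the defining transcript of that tissue, was at or under 0.0288 CPM in every library, below the floor of 3 counts. The Mcidas libraries also carry a different year in their identifiers from the GemC1 and GFP libraries, and if that marks a batch it cannot be told apart from the Mcidas group.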

How the data were processed

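RNA from sorted cells was amplified (SMART-Seq v4) and made into Nextera XT libraries read for 75 bp on an Illumina instrument, per the labels' protocols. The authors deposited raw counts per Ensembl gene, 1 table a library, and neither kit marks strand. Tools named in the submitters' processing notes, without a stated role, are HTSeq 0.5.3, STAR 2.5.2b and DESeq2 1.8.1, and the build is mm10. For the annotation release and the strand setting: not given in the sources used here. Of 53379 identifiers 53274 were matched to GENCODE M21 (GRCm38, the same assembly as mm10) for symbols, positions and exon lengths. The other 105 took at most 0.068% of a library's counts.

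Counts were tested with edgeR 4.0.16 in R 4.3.3: filterByExpr (minimum count 10, minimum total 15), TMM factors of 0.96 to 1.035, 1 quasi-likelihood fit over 9 libraries with group as the only term, two-sided, and Benjamini-Hochberg adjustment over 19572 genes. The SE comes from the fold change and its F. The fit was also run on counts simulated from its own estimates of spread. Such a run cannot show that the model suits these libraries. DESeq2 1.42.0, other scaling and filters, a replicate block and leaving out each library were alternatives. Every pair of replicates differed beyond counting noise (chi-square over its degrees of freedom 13 to 23.7), so none was counted as a copy.

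The members and lists were chosen with earlier results of these data known, so their counts are descriptions. Named were all 10 members, genes of the other central apparatus list called in a comparison with GFP, 8 regulators, the 8 genes of most similar pattern, Spag6 and genes whose exons overlap a member's. Chosen after their values were seen were Mycbp, Wdr47, Camsap3, Clic6 and Ttr. Promoter letters came from a RefSeq table on GRCm38.p6, of 250 bases before to 50 after each start.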

Additional observations from a re-analysis of the deposited data

How the results depend on the processing

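Over 16 alternatives, members called higher numbered 6 to 9 in GemC1 against GFP (main 8) and 7 to 10 in Mcidas against GFP (main 8), and 0 in GemC1 against Mcidas throughout. Of 160 member values in GemC1 against GFP, 143 kept their direction and side of the threshold, 13 lost the call and 4 gained it; in Mcidas against GFP these were 150, 3 and 7. In GemC1 against Mcidas 4 of 160 changed sign: Hydin was 0.10 with the replicate block, and leaving out 1 library gave -0.95 to 0.11 for Hydin and -0.69 to 0.068 for Cfap46. All genes called higher in GemC1 against GFP, 756 in the main fit, were 1159 with DESeq2 and 443 to 877 with 1 library left out, the lowest without GFP replicate 3 and 472 without GFP replicate 2. Genes called between GemC1 and Mcidas, 10 in the main fit, were 460 with DESeq2, 195 with no filter, 6 with the replicate block, 5 with only the compared groups, 5 without Gmnc, Mcidas, mitochondrial and globin genes, and 4 to 13 with 1 library left out. The cause was not tested.

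Same-numbered libraries did not deviate together (correlations of -0.076 to 0.048), so the numbers were not taken as pairs, and with the replicate block 8 members were called in each comparison with GFP. Depth limits Spef2, Spag16, Hydin and Cfap46 most, since their GFP libraries held 0 to 39 counts each.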
